A study of Mus musculus with 4 samples.

Results

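The genes described here are Trp53, which encodes the transcription factor p53, and 9 genes that p53 is known to switch on: Mdm2, Cdkn1a, Ccng1, Gadd45a, Aen, Phlda3, Trp53inp1, Zmat3 and Sesn1. They were taken by symbol from a gene expression table of the series, which lists 14435 genes, and all 10 were in it. RNA was sequenced from RAW264.7 cells, an established macrophage line from an Abelson leukaemia virus tumour of a male mouse, after 12 hours with lipopolysaccharide (LPS) of Escherichia coli. 2 control libraries came from cells transfected with a nonspecific shRNA and 2 knockdown libraries from cells transfected with METTL3 shRNA, aimed at the catalytic part of the complex that places N6-methyladenosine on RNA. LPS was given in both groups, and neither resting cells nor cells with induced DNA damage were measured. No label tells whether replicate libraries stem from separate cultures or transfections. The p-values therefore weigh the group difference only against the spread between these libraries, which may be technical. The treatment label of knockdown replicate 2 names METTL4, whereas its title has Mettl3.

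p53 is made at all times and destroyed at once in unstressed cells, because the ubiquitin ligase MDM2 binds it and marks it for the proteasome. DNA damage and other stresses break this contact, p53 accumulates, and it binds DNA at paired copies of a 10-base sequence, the decamer. Its targets include Mdm2 itself, which closes a feedback loop, and Cdkn1a, whose product p21 inhibits cyclin-dependent kinases and stops the cell cycle. Since p53 is controlled mainly as a protein, the level of Trp53 RNA does not measure its activity, and the RNA of its targets is the usual readout. Several targets, Cdkn1a and Gadd45a among them, also answer to other stress and differentiation signals.

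Matches to the p53 binding sequence near the starts of these genes are shown first, because the genes are grouped as targets of p53. Promoter windows of 300 bases, from 250 bases before an annotated start of transcription to 50 after it, came from RefSeq on build GRCm38.p6 and were available for 8 of the 10 genes. Zmat3 and Trp53inp1 had no entry. The windows were searched for the p53 decamer, in order 3 purines, C, 2 bases that are A or T, G and 3 pyrimidines, which reads the same on both strands. A match was found for 7 of the 8 genes, all but Phlda3. It was found in 8.36% of all 32851 windows, and 712 of the 8899 tested genes with an entry had a match in any window. The genes are known p53 targets, so this count describes them and is no separate evidence. Capitals mark each matched decamer and, for Cdkn1a and Ccng1, the 20 bases that matched a pair of adjoining decamers with 1 mismatch. A match of that kind, with at most 1 mismatch, was found in 0.0883% of all windows. The flanks are in lower case, and each sequence reads 5′ to 3′ on the strand of its gene.
Cdkn1a: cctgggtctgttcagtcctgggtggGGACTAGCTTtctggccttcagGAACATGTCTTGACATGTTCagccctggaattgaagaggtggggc
Ccng1: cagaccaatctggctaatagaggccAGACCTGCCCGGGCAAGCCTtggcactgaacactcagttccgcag
Mdm2: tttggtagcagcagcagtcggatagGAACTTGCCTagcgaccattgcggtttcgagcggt
Trp53: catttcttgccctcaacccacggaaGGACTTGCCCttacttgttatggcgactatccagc
Sesn1: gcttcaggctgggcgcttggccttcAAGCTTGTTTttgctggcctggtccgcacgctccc
Aen: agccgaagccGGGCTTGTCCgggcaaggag
Gadd45a: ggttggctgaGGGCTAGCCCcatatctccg

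The Cdkn1a sequence lies at chr17:29090881-29090972 on the plus strand, before the upstream of 2 annotated starts that are 2790 bases apart. Its paired decamers begin 51 bases before that upstream start, and a further decamer begins 73 bases before it. The window at the downstream start of Cdkn1a held no match. The Ccng1 sequence lies at chr11:40755437-40755506 on the minus strand, and its paired decamers begin 195 bases before the start. The Mdm2 match at chr10:117710910-117710969 (minus strand) begins 186 bases before the start, and the Trp53 match at chr11:69580259-69580318 (plus strand) begins 75 bases before it. For Sesn1 the match at chr10:41887241-41887300 (plus strand) belongs to the downstream of 2 annotated starts, 173 bases before it. The Aen match at chr7:78895927-78895956 (plus strand) lies 121 bases before the downstream of 2 starts and inside an exon of the upstream one. The Gadd45a match at chr6:67037428-67037457 (minus strand) begins 40 bases before the start. An exon of Gadd45a in the GENCODE M21 annotation overlaps this match or lies close to it, so the flanks printed are short. The best pair of decamers in the Mdm2 window had 5 mismatches, and 76.6% of all windows had a pair with at most that many. In the windows that held the matches of Trp53, Sesn1, Aen and Gadd45a the best pair had 3 mismatches. At most that many were found in 6.29% of all windows. A match in these windows is a description of the letters, not a measured site, and binding was not measured.

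The count totals were between 16342313 and 17193639 per library. Mettl3 was lower in both knockdown libraries, with 30.9 and 29.9 CPM in the controls against 11.5 and 11.2 CPM, a log2 fold change of -1.42 (SE 0.10, n = 2 per group, edgeR Benjamini-Hochberg adjusted p = 1.58e-06). CPM are TMM-scaled counts relative to library size, every fold change is knockdown over control, and a gene was called when its p in edgeR's quasi-likelihood F test was below 0.05 after adjustment (Benjamini-Hochberg) across the 11035 genes tested. In this test 43.7% of the genes were called, 21.4% of them as higher and 22.3% as lower in the knockdown, where both percentages are of all tested genes. All 12 macrophage markers checked were in the table, and their summed level went from 14373 and 14718 CPM in the controls to 9850 and 9792 CPM in the knockdown libraries. 7 of the 12 fell, 2 rose and 3 were not called. 5 of 8 fibroblast markers were in the table and summed to 0.301 CPM in each control and to 4.22 and 1.21 CPM in the knockdown libraries. 4 of 10 lymphocyte markers summed to 1.99 and 1.21 CPM in the controls and to 1.90 and 0.805 CPM in the knockdown libraries, and 3 of 8 neutrophil and mast cell markers to 5.66 and 5.97 against 6.13 and 5.63 CPM, nearly all of it S100a8. The other markers of these lists and the 5 epithelial ones were looked for but were not in the table. In knockdown replicate 1 Col1a1, Col1a2 and Col3a1 had 17, 15 and 15 counts against 0 in each control. The part of these marker differences in the results below was not tested.

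All 10 genes passed the filter on low counts, so each was tested. 6 of the 10 were called, 2 as higher and 4 as lower in the knockdown, against 43.7% of all tested genes called either way, 21.4% as higher and 22.3% as lower. The groups did not overlap in CPM for 7 of the 10, with 3 higher and 4 lower in the knockdown. The same held for 73.4% of all tested genes, 37.1% higher and 36.3% lower. The median log2 fold change of the 10 genes was -0.14, against 0.01 for all tested genes, and the median size of the change regardless of sign was 0.32 against 0.26. No member changed by as much as 1 on the log2 scale. Gadd45a, Mdm2, Aen and Cdkn1a were called as lower and Zmat3 and Phlda3 as higher in the knockdown libraries. Regardless of sign and call, 6 of the 10 changed by more than the median size of all tested genes. Of the 6 calls only that of Gadd45a was made under all 15 alternative settings. Without knockdown replicate 1 only Gadd45a was called in edgeR, without knockdown replicate 2 only Gadd45a and Zmat3, and without control replicate 1 the falls were Gadd45a and Sesn1.

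**Figure D1:**
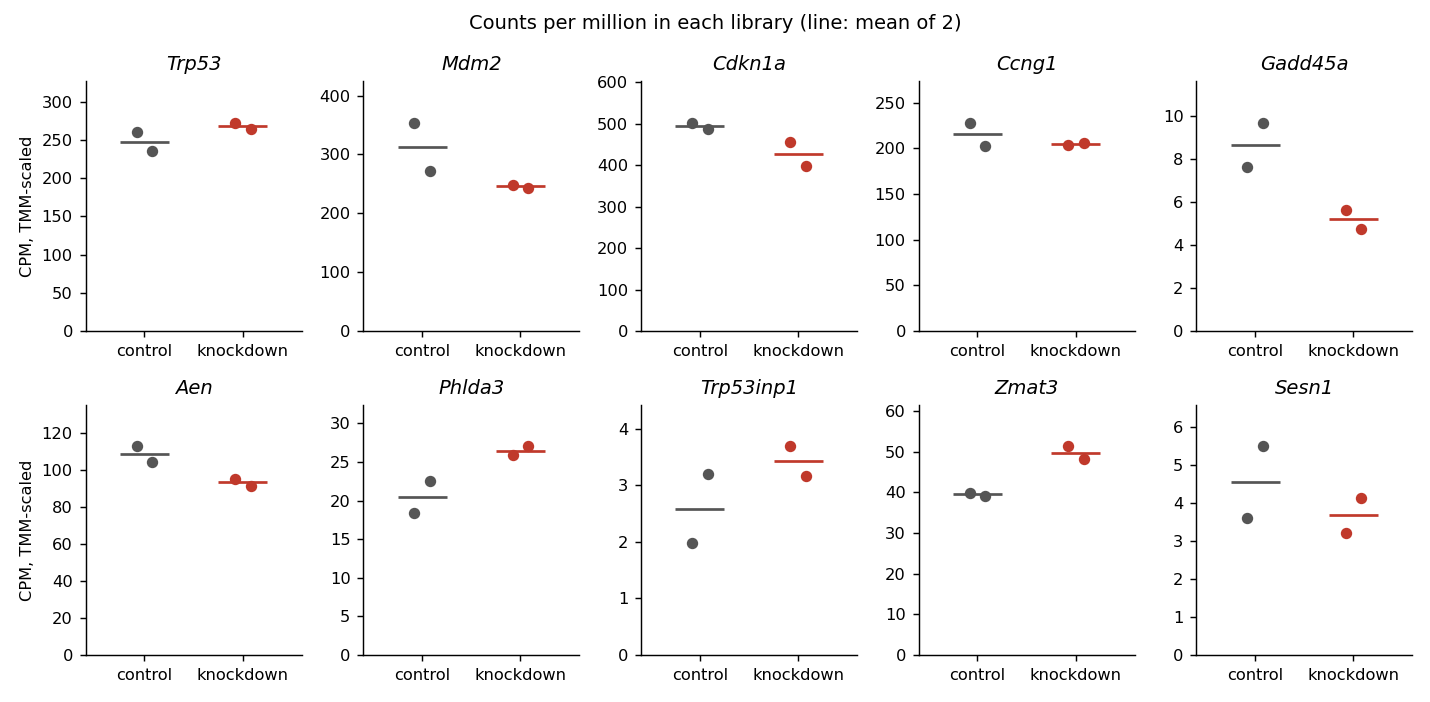
CPM (vertical axis, TMM-scaled, starting at 0) of the 10 genes in each library, with controls in grey, knockdown libraries in red and a line at the mean of the 2 libraries. The groups are apart for Trp53, Mdm2, Cdkn1a, Gadd45a, Aen, Phlda3 and Zmat3 and overlap for Ccng1, Trp53inp1 and Sesn1.

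The level of each gene per length was compared in TPM, the authors' length-scaled unit of transcript abundance. Cdkn1a was the most abundant, at 375 to 437 TPM over the 4 libraries, and only 2.37% of the genes in the table had a higher mean. Trp53 followed at 214 to 277 TPM, Mdm2 at 136 to 182 TPM, Ccng1 at 90.3 to 105 TPM and Aen at 68.7 to 78.0 TPM. These 5 genes were thus strongly expressed in LPS-treated cells of both groups, and the ranges of neighbours in this order did not overlap. Unlike in CPM, the control and knockdown libraries overlapped in TPM for Cdkn1a, Mdm2 and Aen. For Cdkn1a, knockdown replicate 1 had 429 TPM against 412 TPM in control replicate 2. Phlda3 lay at 21.4 to 34.3 TPM. Gadd45a (7.43 to 13.5 TPM) and Zmat3 (7.58 to 11.3 TPM) came next, and their ranges did overlap. In the controls Gadd45a was above Zmat3, with 10.96 and 13.47 TPM against 7.99 and 7.58. In the knockdown libraries the order was the other way round, with 8.69 and 7.43 TPM for Gadd45a against 11.26 and 10.47 for Zmat3. Sesn1 (2.04 to 3.20 TPM) and Trp53inp1 (0.580 to 1.17 TPM) were the lowest, and the mean of Trp53inp1 was 453 times below that of Cdkn1a. Fewer cells that express a gene and less RNA per cell cannot be told apart in these bulk libraries.

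Trp53 RNA itself (Entrez gene 22059) was not called. It had 260 and 236 CPM in the controls and 272 and 265 CPM in the knockdown libraries. Both knockdown values were above both controls, but the gap between the groups, from 260 to 265, was smaller than the distance between the controls. The log2 fold change was 0.12 (SE 0.08, 95% interval -0.05 to 0.28, n = 2 per group, edgeR Benjamini-Hochberg adjusted p = 0.236). It was called as higher without control replicate 1 (0.18, adjusted p = 0.0483 by edgeR), with library size as the only scaling (0.21, adjusted p = 0.0392 by edgeR) and with the authors' TPM (0.26, adjusted p = 0.0308 by limma).

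Mdm2, the ubiquitin ligase that destroys p53 and is itself a p53 target (Entrez gene 17246), had 354 and 273 CPM in the controls and 248 and 243 CPM in the knockdown libraries. The controls differed by 1.30 times, with replicate 1 the higher, while the knockdown libraries differed by 1.02 times. The fall of 0.35 on the log2 scale (log2 fold change -0.35, SE 0.12, 95% interval -0.62 to -0.08) was called with an edgeR Benjamini-Hochberg adjusted p of 0.0431. The size depended on which control was kept. Without control replicate 1 the log2 fold change was -0.16 and not called, and without control replicate 2 it was -0.53, both by edgeR. The call was also lost in edgeR without knockdown replicate 1 (log2 fold change -0.36) or 2 (-0.34). Mdm2 in control replicate 2 and Zmat3 in knockdown replicate 1 had fractional expected counts (4526.08 and 862.46).

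Cdkn1a, which encodes p21 (Entrez gene 12575), had 502 and 488 CPM in the controls and 455 and 397 CPM in the knockdown libraries. Both knockdown libraries lay below both controls in CPM. Here it was the knockdown libraries that differed more, by 1.15 times against 1.03 times. The log2 fold change was -0.22 (SE 0.08, 95% interval -0.39 to -0.04), or 0.860 times the control level, with an edgeR Benjamini-Hochberg adjusted p of 0.0472. The call was made in only 4 of 15 alternatives. It was lost in edgeR without control replicate 1 (log2 fold change -0.21), knockdown replicate 1 (-0.32) or knockdown replicate 2 (-0.12). The call was also lost in DESeq2 (adjusted p = 0.0510). In GENCODE M21 its exons share 273 bases with AC167363.2 on the other strand, and reads of the 2 genes cannot be told apart there.

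Ccng1 encodes cyclin G1, a p53 target that recruits the phosphatase PP2A to MDM2 (Entrez gene 12450). It had 228 and 202 CPM in the controls and 203 and 206 CPM in the knockdown libraries, and the knockdown values lay between the controls. The log2 fold change of -0.07 (SE 0.08, 95% interval -0.24 to 0.10) was not called (edgeR Benjamini-Hochberg adjusted p = 0.494) and was above 0 in 5 of 15 alternatives. No change was detected, and the interval bounds its size. Ccng1 and Cdkn1a carry the closest matches to the paired p53 sequence printed above, and their values were -0.07 and -0.22.

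Gadd45a, a growth arrest and DNA damage gene whose product binds the replication clamp PCNA (Entrez gene 13197), showed the largest change among the 10. It had 7.64 and 9.70 CPM in the controls and 5.65 and 4.77 CPM in the knockdown libraries, from 127 and 161 counts against 95 and 83. The groups did not overlap, though the controls differed by 1.27 times and the knockdown libraries by 1.18 times. The log2 fold change was -0.74 (SE 0.17, 95% interval -1.12 to -0.35), or 0.601 times the control level, with an edgeR Benjamini-Hochberg adjusted p of 0.00559. The values ran from -0.91 without control replicate 1 to -0.54 with TPM, and the adjusted p ran from 4.59e-04 to 0.0389 over the 15 alternatives. 15.1% of all tested genes had a larger change in either direction. In the later GENCODE M21 annotation 337 exonic bases of Gadd45a are shared with E230016M11Rik on the other strand. The libraries do not mark strand, so reads of the 2 genes cannot be told apart there.

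Of the 3 other growth control or death genes among the 10, 1 fell, 1 rose and 1 was not called. Aen, a nuclease that promotes apoptosis (Entrez gene 68048), had 113 and 104 CPM in the controls and 95.4 and 91.4 CPM in the knockdown libraries, which were both below both controls. Its log2 fold change was -0.22 (SE 0.07, 95% interval -0.38 to -0.06, edgeR Benjamini-Hochberg adjusted p = 0.0309). The Aen call was lost in edgeR without control replicate 1 (log2 fold change -0.17), knockdown replicate 1 (-0.25) or knockdown replicate 2 (-0.19). It was also lost in DESeq2 (adjusted p = 0.0857) and was made in 7 of 15 alternatives. Phlda3, which holds back the survival kinase AKT (Entrez gene 27280), was higher in the knockdown, with 18.4 and 22.6 CPM against 25.9 and 27.01. The knockdown libraries were close to each other, and the controls differed by 1.23 times. Its log2 fold change was 0.37 (SE 0.11, 95% interval 0.12 to 0.62, edgeR Benjamini-Hochberg adjusted p = 0.0206). Without control replicate 1 the value was 0.21 and the call was lost. It was lost too without knockdown replicate 1 (0.40) or 2 (0.34), again by edgeR, and in DESeq2 (adjusted p = 0.108). Trp53inp1, a stress-induced nuclear protein gene that promotes p53 activity (Entrez gene 60599), was thinly covered, at 33 and 53 control counts and 62 and 55 knockdown counts, which is 1.99 and 3.19 CPM against 3.69 and 3.16. The groups overlapped and the controls differed by 1.61 times. Its log2 fold change of 0.40 (95% interval -0.17 to 0.97, edgeR Benjamini-Hochberg adjusted p = 0.235) was not called. It was 0.78 and called without control replicate 2 (adjusted p = 0.0431 by edgeR) and 0.09 without control replicate 1.

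Zmat3, a zinc finger gene whose product binds RNA (Entrez gene 22401), was the steadier of the 2 rises. It had 39.9 and 39.1 CPM in the controls and 51.3 and 48.2 CPM in the knockdown libraries. The distance between the groups was several times the distance within either. The log2 fold change was 0.33 (SE 0.08, 95% interval 0.16 to 0.50), or 1.26 times the control level, with an edgeR Benjamini-Hochberg adjusted p of 0.00525. The call was made in 14 of 15 alternatives and lost only without knockdown replicate 1 (0.29, adjusted p = 0.0819 by edgeR). Sesn1, which encodes a sestrin that restrains the growth kinase mTORC1 (Entrez gene 140742), was at 60 and 91 control counts and 54 and 72 knockdown counts, which is 3.61 and 5.48 CPM against 3.21 and 4.14. The groups overlapped. Its log2 fold change was -0.30 (95% interval -0.84 to 0.23, edgeR Benjamini-Hochberg adjusted p = 0.331). It ran from -0.59 without control replicate 1 to 0.02 without control replicate 2. It was below 0 in 13 of the 14 alternatives that tested it.

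**Figure D2:**
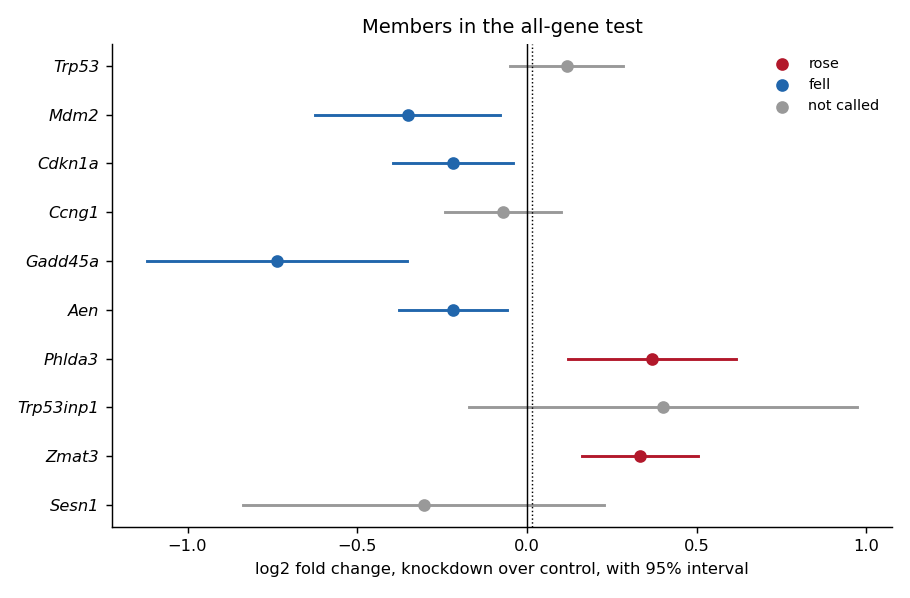
Log2 fold change, knockdown over control (horizontal axis), with its 95% interval for each of the 10 genes in the fit over all tested genes. Red and blue mark genes called as higher or lower, grey those not called, and the dotted line is the median of all tested genes at 0.01. Gadd45a lies farthest from 0, at -0.74.

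The calls on Mdm2, Cdkn1a and Aen were also lost with library size as the only scaling, and with FPKM and TPM, where limma replaced edgeR so that unit, scaling and test changed together. With library size alone the median log2 fold change of all tested genes was 0.11, with FPKM 0.085 and with TPM 0.14, against 0.01 with TMM. The share of calls that were higher in the knockdown was 64.1% with library size, 63.5% with FPKM and 70.0% with TPM, against 48.9% with TMM. In these 3 settings only Gadd45a of the 4 falling genes was called, and Zmat3 and Phlda3 were called in each. For Cdkn1a the log2 fold change was -0.12 with library size and -0.08 with TPM. Taken relative to the median of all tested genes, Cdkn1a was at -0.23 with library size, -0.22 with TPM and -0.23 with TMM. The same difference for Mdm2 was -0.37, -0.34 and -0.36. A change of scaling shifts all genes nearly alike, so these differences hardly move by construction. The sign of Ccng1 turned with library size (0.02), FPKM (0.02) and TPM (0.07), where relative to the median it was at -0.08, -0.07 and -0.07. The signs of the other 9 genes did not turn in these settings.

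**Figure D3:**
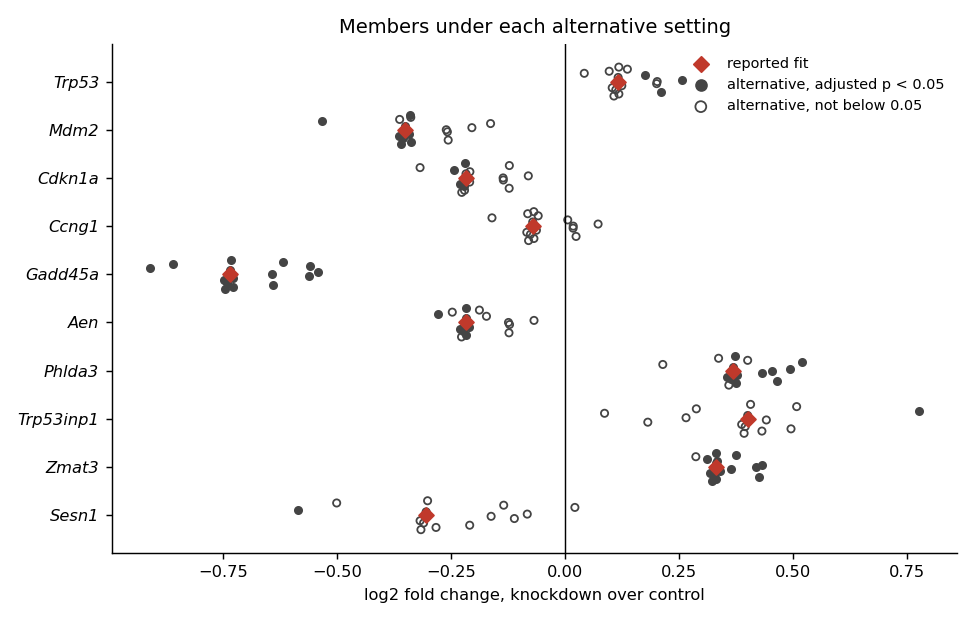
Log2 fold change, knockdown over control (horizontal axis), of each gene in the reported fit (red diamond) and in the alternatives that tested it (circles, filled where the adjusted p was below 0.05). All circles of Gadd45a are filled and lie between -0.91 and -0.54, while those of Ccng1 lie on both sides of 0.

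Most of the 10 genes belong to small families, and related genes gave a comparison within each family. A list of 19 paralogs had 14 in the table and 13 that were tested, of which 5 rose and 2 fell, with a median of 0.20 against 0.01 for all tested genes. The rises were 3 without control replicate 1 or knockdown replicate 1, 2 without knockdown replicate 2 and 3 in DESeq2. The share of tested genes called as higher was 21.4% and as lower 22.3%. In the GADD45 family, Gadd45g fell from a group mean of 9.88 to 4.25 CPM (log2 fold change -1.22, SE 0.16). Gadd45b was the most abundant of the family, at 64.4 TPM in the controls and 69.1 TPM in the knockdown libraries, and was not called (log2 fold change -0.03, SE 0.08). Its sign turned with library size, FPKM and TPM and without knockdown replicate 2. The 2 TP53INP genes differed in level and in evidence. Trp53inp2, which promotes autophagy, rose from 27.9 to 52.6 CPM (0.91, SE 0.08), against the 0.40 of Trp53inp1 that was not called. Mdm4, the partner of MDM2 that blocks p53 without destroying it, rose from 47.0 to 61.7 CPM (0.39, SE 0.08), while Mdm2 fell. Gadd45g had an edgeR Benjamini-Hochberg adjusted p of 1.39e-04, Trp53inp2 of 8.71e-06 and Mdm4 of 0.00228, and these 3 calls held in all 15 alternatives. Differences between members of a family were not tested. The lists here and below share genes, so their counts are not separate. Mdm4 was also counted with the regulators of p53 and Sesn2 with the p53 targets in arrest, repair and metabolism. Cdkn1b was also counted with the cyclin-dependent kinases and their partners.

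Phlda1 fell from 141 to 88.4 CPM (-0.67, SE 0.09), opposite in sign to Phlda3. Sesn2, the sestrin that the amino acid response also induces, had 16.2 CPM in the controls and 20.6 CPM in the knockdown libraries (0.35, SE 0.13), and its edgeR Benjamini-Hochberg adjusted p of 0.0444 was lost without control replicate 1 (0.236), knockdown replicate 1 (0.232) or knockdown replicate 2 (0.0517). The Sesn2 call was also lost in DESeq2 (adjusted p = 0.192), limma-voom (0.0548), edgeR with DESeq2's size factors (0.0502) and edgeR without robust fitting (0.0594). Sesn3 had 1 count in all. Ccng2, which encodes cyclin G2, was at 8.10 and 10.95 CPM (0.44, adjusted p = 0.0214 by edgeR with Benjamini-Hochberg adjustment). It lost its call without control replicate 1 (0.0624), knockdown replicate 1 (0.0501) or knockdown replicate 2 (0.172), and in DESeq2 (0.180). Zmat5 rose (0.45), and lost its call without knockdown replicate 2 (adjusted p = 0.0529 by edgeR). Zmat1 (-0.18), Zmat2 (-0.01), Isg20l2 (-0.13) and Cdkn1b, which encodes the kinase inhibitor p27 (0.20), were not called. The sign of Zmat2 turned with library size, FPKM and TPM and without knockdown replicate 2, and that of Isg20l2 with TPM. Isg20, an exonuclease gene related to Aen, had 62.5 and 31.0 CPM in the controls and 91.4 and 69.0 CPM in the knockdown libraries. The controls differed more than 2-fold in it, and its log2 fold change of 0.78 was not called (edgeR Benjamini-Hochberg adjusted p = 0.33). It was called in 6 of 15 alternatives: with the replicate number as a block (0.83, adjusted p = 0.00515 by edgeR), in edgeR without robust fitting (0.0455), in limma-voom (0.0338), with FPKM at both pseudocounts (0.0370 and 0.0372) and with TPM (0.0307).

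**Figure D4:**
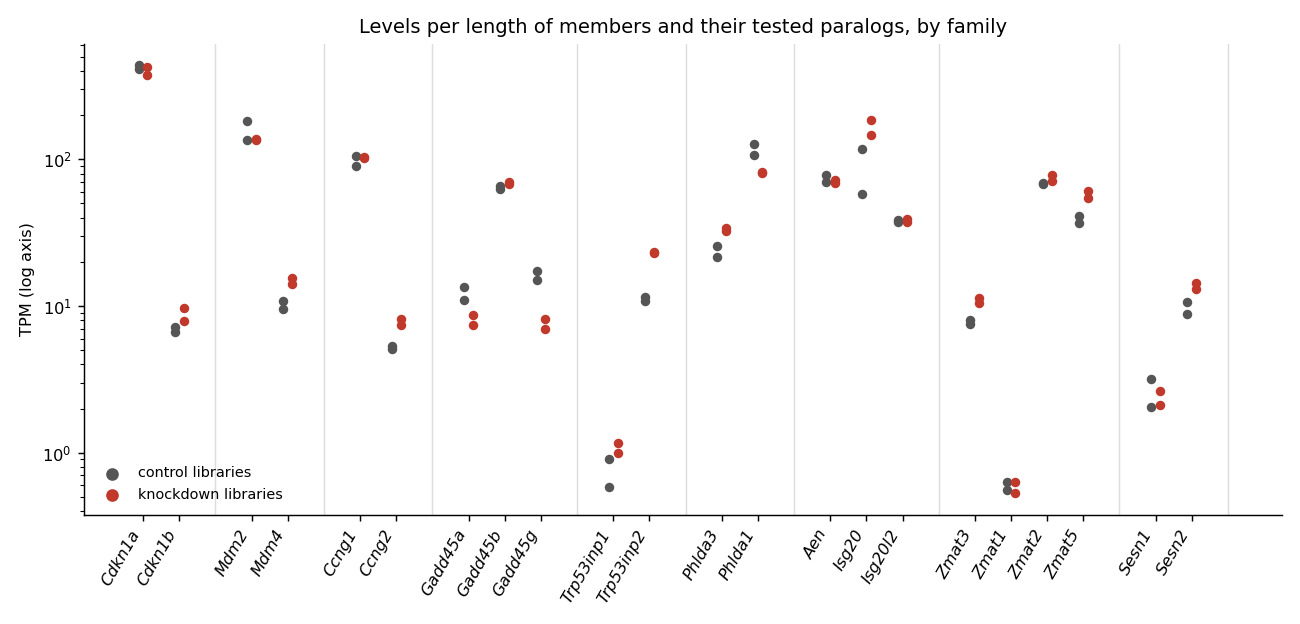
Level in TPM (vertical log axis) of the genes and their tested paralogs in each library, grouped by family, with controls in grey and knockdown libraries in red. Cdkn1a, Mdm2 and Ccng1 are the most abundant of their families, while Gadd45b, Trp53inp2, Phlda1, Zmat2 and Sesn2 are above the p53 target of theirs.

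Genes that act on p53 were called in both directions, at shares near or below those of all tested genes (21.4% higher, 22.3% lower). Of 30 regulators and modifying enzymes 28 were in the table and tested, of which 7 rose and 4 fell, with a median of 0.14 against 0.01 for all tested genes. Atm, the kinase that activates p53 after double-strand breaks, rose by 0.75 on the log2 scale (SE 0.10), from a group mean of 28.3 CPM to 47.7. Levels of the genes named next are likewise group means, followed by the log2 fold change. Sirt1, a deacetylase that acts on p53, rose from 13.4 to 21.2 CPM (0.66, SE 0.11). Cop1, another ubiquitin ligase of p53, rose from 80.4 to 127 CPM (0.66, SE 0.08). The falls included Hipk2, a kinase that directs p53 towards apoptosis, from 223 to 166 CPM (-0.43, SE 0.08). Ppp1r13l, which encodes the inhibitor iASPP, fell from 34.6 to 25.6 CPM (-0.43, SE 0.09), and Ppp1r13b, which encodes the activator ASPP1, from 17.1 to 12.8 CPM (-0.42, SE 0.11). Hipk2 lost its call with TPM (adjusted p = 0.0537 by limma), and Ppp1r13b lost its call without knockdown replicate 1 (adjusted p = 0.118 by edgeR), in DESeq2 and with FPKM or TPM. 11 of the regulators rose without control replicate 1, 11 with library size and 14 with TPM. Without knockdown replicate 1 only 2 fell, as with FPKM, and 1 with TPM.

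The other known p53 targets were likewise called in both directions, at shares near the 21.4% and 22.3% of all tested genes. Of 20 targets in apoptosis 19 were tested, of which 5 rose and 4 fell (median 0.02). Bbc3, which encodes the killer protein PUMA, rose from 6.77 to 12.8 CPM (0.92, SE 0.14). Trp53i11 rose from 1.54 to 6.60 CPM (2.10, SE 0.31) and Casp1, an inflammatory caspase, from 102 to 186 CPM (0.87, SE 0.09). Dram1, which links p53 to autophagy, fell from 70.7 to 29.1 CPM (-1.28, SE 0.08), Siva1 from 24.6 to 16.2 CPM (-0.60, SE 0.11) and Triap1 from 25.8 to 19.7 CPM (-0.39, SE 0.10). Triap1 lost its call without knockdown replicate 2 (adjusted p = 0.0661 by edgeR) and in DESeq2, where the number that fell was 2. Of 50 targets in arrest, repair and metabolism 47 were tested, of which 12 rose and 10 fell (median 0.04), against 21.4% and 22.3% of all tested genes. Btg2, an antiproliferative gene, rose from 18.2 to 41.1 CPM (1.17, SE 0.10) and Icosl, a ligand of T cells, from 3.40 to 8.14 CPM (1.26, SE 0.21). Pltp, a lipid transfer protein gene, fell from 137 to 36.2 CPM (-1.92, SE 0.07), Ninj1, which drives rupture of dying cells, from 291 to 115 CPM (-1.34, SE 0.08), and Fancc, a DNA repair gene, from 8.28 to 5.02 CPM (-0.72, SE 0.16). Tlr3, a sensor of double-stranded RNA, had 29.1 and 16.1 CPM against 113 and 85.2 CPM (2.13, SE 0.40). Its edgeR Benjamini-Hochberg adjusted p of 0.0479 was lost without control replicate 2 (0.0636), knockdown replicate 1 (0.257) or knockdown replicate 2 (0.222), and when genes of low count were kept in (0.0766). Casp1, Tlr3, Icosl and Pltp are also immune or lipid genes of macrophages. In this list 7 members rose without knockdown replicate 2, and 5 fell without knockdown replicate 1 and 6 with FPKM or TPM.

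p21 acts on cyclin-dependent kinases, so these kinases, their cyclins and other inhibitors were read beside it. Of 33 genes 30 were in the table and tested, of which 6 rose and 4 fell (median 0.14), shares at or below the 21.4% and 22.3% of all tested genes. The D-type cyclins, which start the cycle with CDK4 and CDK6, all fell, with Ccnd1 going from 321 to 228 CPM (-0.49, SE 0.10), Ccnd3 from 130 to 93.8 CPM (-0.47, SE 0.07) and Ccnd2 from 2.98 to 0.671 CPM (-2.14, SE 0.35). The calls of Ccnd1 and Ccnd3 held in all 15 alternatives, and that of Ccnd2 in the 14 that tested it. Cdkn2d, which encodes the CDK4 inhibitor p19, rose from 8.40 to 17.6 CPM (1.07, SE 0.13). Cdc25c, a phosphatase that opens mitosis, rose from 2.62 to 5.00 CPM (0.93, SE 0.23), though it was not called in DESeq2 (adjusted p = 0.0547). E2f7 was at 2.32 and 3.63 CPM (0.64, SE 0.24). The E2f7 call (adjusted p = 0.0490 by edgeR) was lost without control replicate 1, knockdown replicate 1 or knockdown replicate 2. The log2 fold changes there were 0.41, 0.57 and 0.71. In edgeR it was also lost with the replicate block (adjusted p = 0.0529), DESeq2's size factors (0.0520) or no robust fitting (0.0551). E2f7 was not called in DESeq2 (adjusted p = 0.273), in limma-voom (0.0559) or by limma with FPKM at both pseudocounts (0.0511 and 0.0566). 10 genes of this list rose without control replicate 2 or with TPM, 2 without knockdown replicate 2 and 3 in DESeq2, while 7 fell without control replicate 1. The genes of the CDK inhibitors Cdkn2a and Cdkn2b were looked for but were not in the table.

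**Figure D5:**
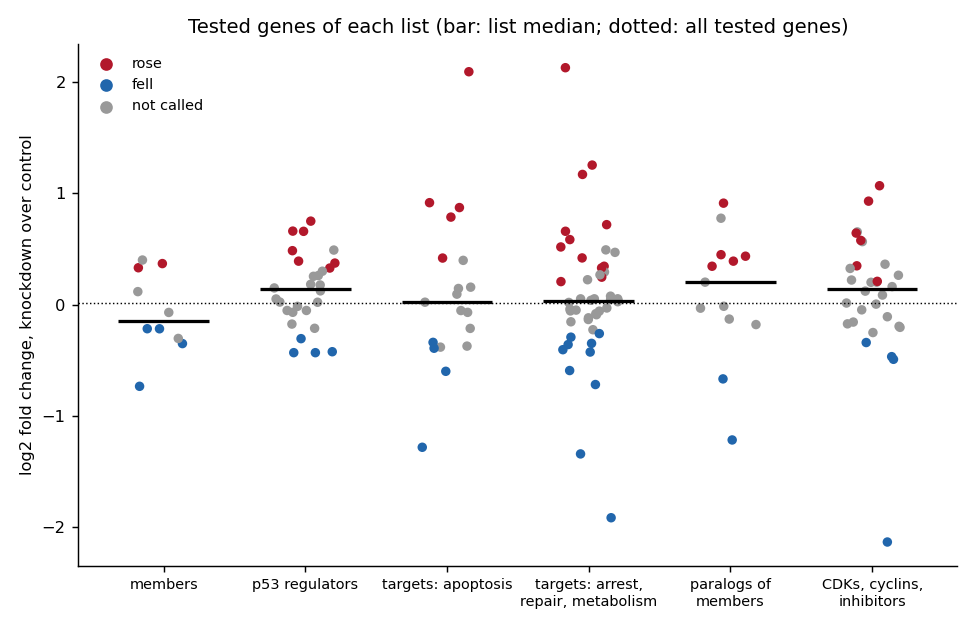
Log2 fold change, knockdown over control (vertical axis), of every tested gene of each list, coloured red or blue where called as higher or lower and grey where not called. Bars are list medians, between -0.14 and 0.20, and the dotted line is the median of all tested genes at 0.01, with genes of every list on both sides of it.

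Because the targeted enzyme methylates RNA, the transcripts were also searched for GGACT on the sense strand, a common form of its target motif. In the longest coding transcript of each gene in GENCODE M21, a median of 1.05 matches per kilobase was found over 10827 tested genes, and 92.5% of them had at least 1 match. The 10 genes had a median of 1.15 per kilobase. Cdkn1a had the highest density, 1.92 per kilobase from 4 matches in 2080 bases, and Trp53 had 0 in 1867 bases. Gadd45a, which fell most, had 0.82 per kilobase, from 1 match in 1223 bases. Zmat3, the steadier rise, had 1.15 per kilobase, from 9 matches in 7797 bases. Both densities lay between the quartiles of the tested genes, 0.64 and 1.51. Aen had 6 matches, Sesn1 5, Ccng1 4 and Mdm2, Phlda3 and Trp53inp1 2 each. A match is not a methylated site, and methylation was not measured in these libraries.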

How the data were processed

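RNA of 4 libraries was measured by sequencing of poly(A)-primed, PCR-amplified cDNA without molecular identifiers or strand, as single-end reads, per the labels' protocols. For each gene and library the authors deposited estimated counts, FPKM and TPM. RSEM 1.2.12, Bowtie2 2.2.5, HISAT2 2.0.4 and build mm9 are named, with no role, per the submitters' processing notes. Which annotation was used is not given in the sources used here; gene identifiers are Entrez numbers. The deposited expected counts are unnormalized and not whole for 1808 genes, the deposited FPKM are scaled to length and library size, and the deposited TPM sum to the same total in each library. Counts were rounded and tested with edgeR 4.0.16 (R 4.3.3) by quasi-likelihood with robust fitting, TMM and filterByExpr (minimum count 10, minimum total 15), leaving 11035 genes. SE was derived from the fold change and the F statistic. FPKM and TPM were tested with limma 3.58.1 on log2(value + 1), and FPKM also on log2(value + 0.1). Other alternatives were DESeq2 1.42.0, limma-voom, edgeR with DESeq2's size factors, with library size, without robust fitting, with other filters on low counts, with the replicate block and with each library left out. The fit was tested on simulated data with few changed genes, as many up as down. That test does not cover data in which so large a share of genes is called. Replicates were compared first: chi-square per degree of freedom was 11.7 for the control pair and 4.25 for the knockdown pair, so both pairs differed by more than sampling noise. The genes and lists were chosen with earlier results of these data known. Named beside the 10 genes were Mettl3, the tested paralogs and, in each other list, the 3 largest called changes per direction whose groups did not overlap. Col1a1, Col1a2, Col3a1, S100a8 and Sesn3 were named after their values were seen. RefSeq sequences are of GRCm38.p6, a later build than mm9, and matched the genes by symbol. Intervals are 95% intervals of the fold change, and they rest only on the spread between these libraries.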

Additional observations from a re-analysis of the deposited data

How the results depend on the processing

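15 alternatives were run. With each library left out in turn, the number of genes called lay between 3095 and 5324 (4826 in the reported fit). Over the same 4 fits 0 to 3 of the 10 genes rose and 1 to 4 fell. Regulators ran from 6 to 11 that rose and 2 to 4 that fell, targets in arrest, repair and metabolism from 7 to 11 and 5 to 11, paralogs from 2 to 5 that rose, and cyclin-dependent kinases and their partners from 2 to 10 and 3 to 7. In DESeq2 1 of the 10 genes rose and 2 fell, 2 targets in apoptosis fell, and 3 paralogs and 3 kinases or partners rose. With library size 1 of the 10 genes fell and 11 regulators rose. With FPKM at either pseudocount 1 of the 10 genes, 2 regulators and 6 targets in arrest, repair and metabolism fell. With TPM 1 of the 10 genes, 1 regulator and 6 of those targets fell, and 14 regulators and 10 kinases or partners rose. The log2 fold change of Ccng1 turned above 0 with library size (0.0246), FPKM (0.0181, and 0.0184 at the smaller pseudocount) and TPM (0.0729), and with a library left out it ran from -0.16 to 0.0063. That of Sesn1 ran from -0.586 without control replicate 1 to 0.022 without control replicate 2. The cause was not tested. Fits that leave 1 library in a group assume that it varies like the other group.

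The replicate numbers are shared between the groups, but no label says that they mark a shared day or culture. The deviations of same-numbered libraries had a correlation of 0.146 across genes. With the replicate block 5116 genes were called, 2 of the 10 genes rose and 4 fell, so no call on the 10 changed. Trp53inp1 and Sesn1 had the fewest counts of the 10 genes, 33 to 91 per library, and the part of depth in their wide intervals was not tested.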
